A study of Mus musculus with 6 samples.

Results

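The 10 genes described here encode the enzymes that make serine and that pass its side-chain carbon to folate. They were found by gene name among 46078 annotated genes, and all 10 had reads in every library and passed the low-count filter. The samples were growth plates dissected from the knee ends of femur and tibia of mouse embryos at E18.5, with 3 control and 3 mutant libraries sequenced in bulk. Controls were Idh1 LSL/+, in which a stop cassette keeps the mutant allele silent and no Cre transgene is present. Mutants were Col2a1-Cre; Idh1 LSL/+, in which Cre driven by the type II collagen promoter turns the allele on in chondrocytes and other cells that have used that promoter. Both groups therefore carry the silenced allele, the Cre transgene and the active mutant come together, and their effects cannot be told apart. The comparison asks how the messenger RNA (mRNA) of these enzymes differs between the 2 groups, and whether mitochondrial and cytosolic enzymes differ alike.

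Serine is made in the cytosol from a glycolytic intermediate by Phgdh, Psat1 and Psph. Serine hydroxymethyltransferases then split it into glycine and a one-carbon unit carried by tetrahydrofolate, and this happens both in the cytosol (Shmt1) and in mitochondria (Shmt2). In mitochondria the unit is oxidised by Mthfd2, released as formate by Mthfd1l, or burned to carbon dioxide with formation of NADPH by Aldh1l2. In the cytosol the trifunctional enzyme Mthfd1 interconverts the same folates, and Aldh1l1 is the counterpart of Aldh1l2. Formate leaving the mitochondria feeds purine and thymidylate synthesis, and glycine is the most frequent residue of collagen, the main protein of cartilage. The mutant Idh1 protein consumes NADPH and makes 2-hydroxyglutarate.

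The promoters of paired enzymes are shown because the cytosolic and mitochondrial members are compared below, and that of Phgdh, which starts serine synthesis, for its match to an antioxidant response element. Each line gives, 5′ to 3′, the bases just before a RefSeq transcription start (GRCm38.p6), stopping where the exons used for counting begin, and the Shmt1 and Aldh1l1 stretches lie between exons of the counted genes. Capitals mark whole matches, on either strand, to a CCAAT box (CCAAT), a GC box (GGGCGG) or an antioxidant response element (TGACNNNGC).
Shmt1, chr11:60811266-60811365, minus strand: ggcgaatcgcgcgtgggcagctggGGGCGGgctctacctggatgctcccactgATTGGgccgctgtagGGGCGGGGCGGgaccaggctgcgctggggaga
Shmt2, chr10:127522445-127522544, minus strand: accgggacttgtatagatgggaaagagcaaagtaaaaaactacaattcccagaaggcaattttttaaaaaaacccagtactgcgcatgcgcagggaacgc
Mthfd1, chr12:76255132-76255231, plus strand: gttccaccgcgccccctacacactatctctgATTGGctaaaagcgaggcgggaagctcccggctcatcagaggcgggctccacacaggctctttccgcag
Mthfd1l, chr10:3972975-3973074, plus strand: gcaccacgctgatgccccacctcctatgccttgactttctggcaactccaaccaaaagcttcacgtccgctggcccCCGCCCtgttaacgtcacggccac
Mthfd2, chr6:83317607-83317704, minus strand: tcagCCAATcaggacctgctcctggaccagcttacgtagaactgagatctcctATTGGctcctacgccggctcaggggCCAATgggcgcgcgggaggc
Aldh1l1, chr6:90550693-90550788, plus strand: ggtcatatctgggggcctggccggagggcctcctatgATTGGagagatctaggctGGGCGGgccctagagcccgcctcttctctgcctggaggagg
Phgdh, chr3:98339991-98340069, minus strand: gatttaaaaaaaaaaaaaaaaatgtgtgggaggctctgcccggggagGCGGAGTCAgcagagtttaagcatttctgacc

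RefSeq windows of 300 bases, from 250 before to 50 after the start, were matched for 9 of the 10 genes and not for Aldh1l2. Psat1 has 2 such windows, which makes 10 windows in all. The cytosolic and mitochondrial serine hydroxymethyltransferases had unlike windows. That of Shmt1 held 4 GC boxes, of which 2 overlap by a base, and 1 CCAAT box, with 60.7% G and C, whereas that of Shmt2 held none of the motifs searched, with 42.7%. Aldh1l1 had 2 CCAAT boxes and 1 GC box, Mthfd2 3 CCAAT boxes, Mthfd1l 1 GC box, and Mthfd1 1 of each. A match to the antioxidant response element stood in the windows of Phgdh and Psph, and such a match is found in 12.4% of 32851 RefSeq windows of the same length. The C/EBP-ATF element (TGATGNAA, in 3.97% of windows) and the E-box (CACGTG, in 7.15%) had no match in any of the 10 windows. CCAAT and GC boxes are common, in 37.4% and 35.7% of windows. Letters that match a motif are a description of these windows only.

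The libraries held 23445687 to 30415773 counts. Idh1 mRNA overlapped between the groups, at 37.3, 39.2 and 65.4 CPM in controls and 47.6, 47.7 and 56.3 in mutants. CPM are the counts scaled to a common library size. For Idh1 the log2 fold change was 0.10 (SE 0.19, edgeR adjusted p = 0.940). With this overlap, the counts do not settle whether the silenced allele was turned on in mutants. Counts per gene also do not separate the mutant from the normal transcript. Col2a1, the collagen gene that defines chondrocytes, was at 1923 to 4280 CPM in controls and 3659 to 5245 in mutants, and Acan at 711 to 777 and 763 to 895. Other tissues were present too, since muscle markers summed to 16910 to 24650 CPM in controls and 15950 to 23250 in mutants, above the 3346 to 6751 and 5236 to 7458 of the cartilage list. Tendon markers were lower in mutants: 5 of 6 had every mutant library below every control, against 7.58% of all genes tested, with a summed level of 3208 to 3441 CPM in controls and 2110 to 2472 in mutants. Among them Tnmd was called (log2 fold change -0.81, edgeR adjusted p = 0.0374). Red blood cell markers were lower for 6 of 6 (545 to 1583 against 288 to 427 CPM). For 5 of the 6 every mutant lay below every control, and none was called. By contrast, 7 of 8 bone markers were higher, their median log2 fold change being 0.38. The bone sums overlapped, but they were mostly Col1a1, at a mean of 38130 CPM in controls and 38410 in mutants. The log2 fold change was 1.75 for Dmp1 and 1.32 for Ibsp, against -0.36 for Runx2, the marker that was lower, and no bone marker was called. Macrophage and osteoclast markers were higher for 5 of 6 (331 to 418 against 282 to 450 CPM, median log2 fold change 0.25) and endothelial markers for 4 of 5 (719 to 750 against 724 to 818 CPM, median 0.08). Every mutant lay above every control for 2 genes of each list, against 6.85% of all genes tested, and none was called. Of 4 keratinocyte markers tested, all were lower, at sums of 9.06 to 17.8 CPM in controls and 7.19 to 7.33 in mutants. Krt5 was called (log2 fold change -4.48, edgeR adjusted p = 0.0355), while Krt10 was near level at -0.04. None of the 10 cartilage markers passed the test. The 4 Y-linked genes listed were at 0 in mutant 3, so this library differs from the others in sex. The part of these differences in the results below was not tested, and fewer cells of a type cannot be told apart from less RNA per cell.

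Among the 10 genes, the mitochondrial folate enzymes and the first steps of serine synthesis had higher values in mutant than in control growth plates, without overlap. The cytosolic folate enzymes among them overlapped between genotypes. The median log2 fold change (mutant minus control) of the 10 genes was 0.32, against -0.0026 for all 16813 genes tested, and 8 of the 10 had positive values, against 49.3% of all genes. In 6 of them (Phgdh, Psat1, Shmt2, Mthfd1l, Mthfd2 and Aldh1l2) every mutant library lay above every control library, a pattern found in 6.85% of all genes tested. The same 6 had an unadjusted p under 0.05 with a higher level in mutants, against 3.71% of all genes. Since the genes were chosen with earlier results of these data known, these shares are descriptions and not tests. Only Aldh1l2 passed the test across all genes (edgeR quasi-likelihood with Benjamini-Hochberg adjustment, adjusted p under 0.05), which called 32 genes, or 0.190%, and 9 genes, or 0.0535%, as higher in mutants.

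**Figure D1:**
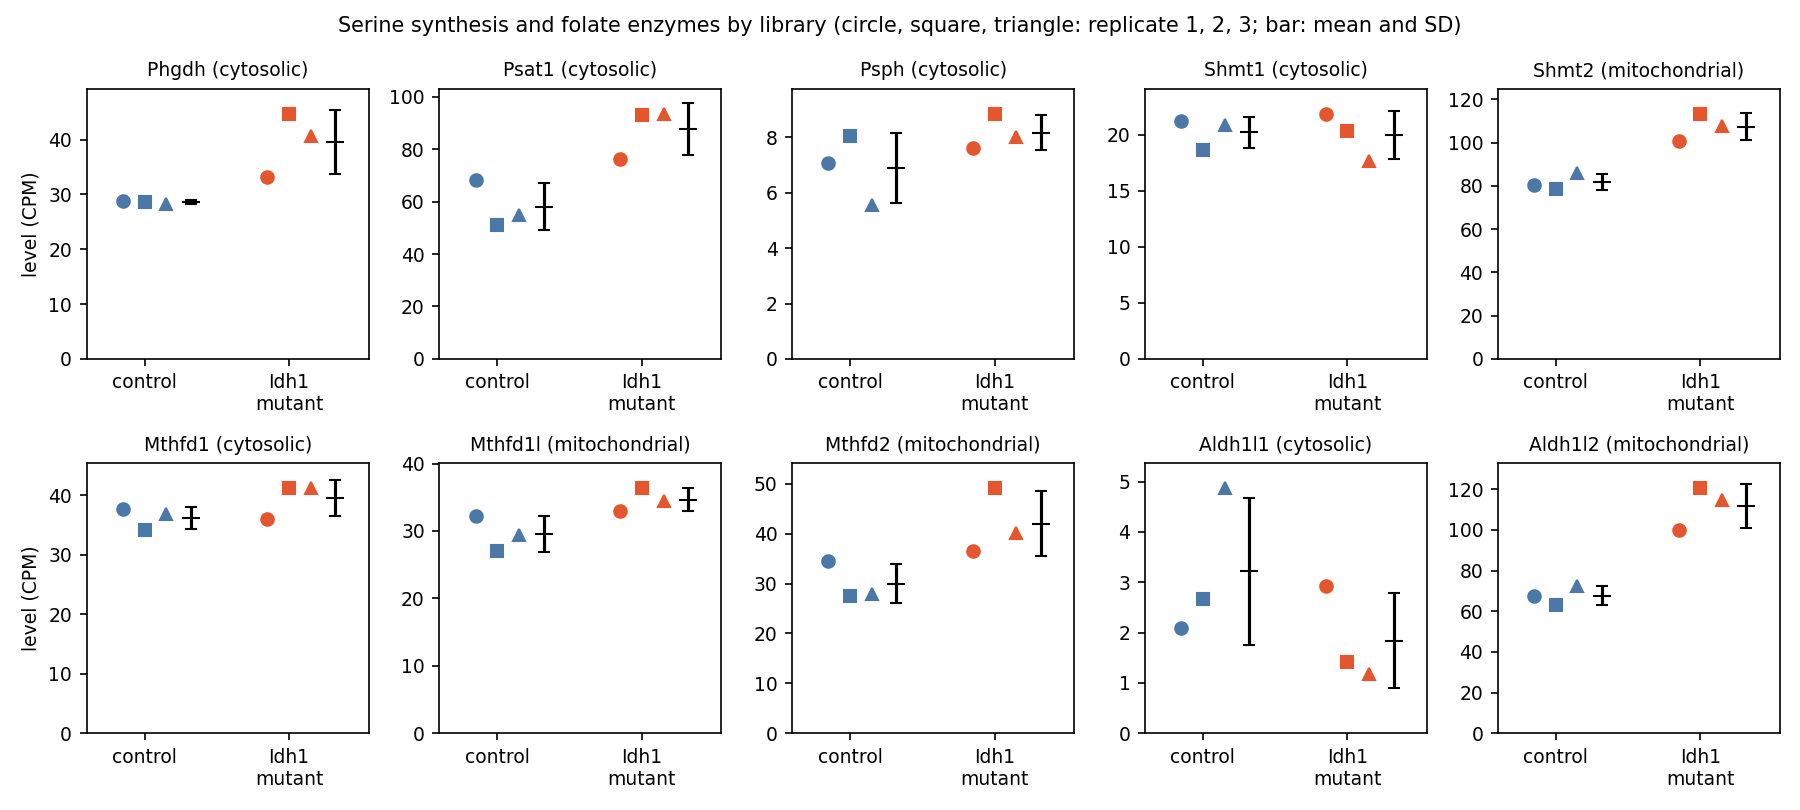
Level of each enzyme mRNA in CPM (vertical axes from 0, each with its own scale) in the 3 control and 3 mutant libraries, with the mean and SD of each group as a black bar. Aldh1l2, Shmt2, Psat1, Phgdh, Mthfd2 and Mthfd1l show all mutant libraries above all controls, whereas the groups overlap for Shmt1, Mthfd1, Psph and Aldh1l1.

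Phgdh (chr3:98313170-98339990, minus strand) encodes the dehydrogenase that commits phosphoglycerate to serine synthesis. Its level was 28.9, 28.7 and 28.2 CPM in controls 1, 2 and 3 and 33.2, 44.8 and 40.6 CPM in mutants 1, 2 and 3. The controls were nearly equal and the mutants spread widely, with mutant 1 nearest to the controls. The mean was 28.6 ± 0.322 CPM in controls and 39.5 ± 5.84 in mutants (SD, n = 3 each). The difference, as log2 fold change, was 0.47 (SE 0.11, 95% interval 0.22 to 0.71), and it did not pass the threshold (edgeR adjusted p = 0.192). Of the 50-base stretches of Phgdh transcripts, 47.8% also occur in transcripts of other genes, chiefly the copies Gm7901, Gm9347 and Gm8341. Reads that map to several places were not counted, so the Phgdh level rests largely on the remaining sequence, and its level relative to other genes is uncertain.

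Psat1 (chr19:15904678-15947337, minus strand) encodes the aminotransferase of the pathway, which takes its amino group from glutamate. Controls had 68.2, 51.0 and 55.0 CPM and mutants 76.3, 93.0 and 93.6 CPM. The gap between the highest control and the lowest mutant was small beside the spread within each group. The means were 58.1 ± 9.03 and 87.6 ± 9.80 CPM (SD, n = 3 each), a ratio of 1.51. This was a log2 fold change of 0.59 (SE 0.12, 95% interval 0.32 to 0.87), the second largest rise in size among the 10 genes, with an edgeR adjusted p of 0.141.

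Psph (chr5:129765558-129787449, minus strand) encodes the phosphatase that releases serine. It was expressed far below the other enzymes of the route, at 7.07, 8.06 and 5.56 CPM in controls and 7.63, 8.86 and 7.99 in mutants, and the groups overlapped. Mutants differed by a log2 fold change of 0.24 (SE 0.16, 95% interval -0.12 to 0.61, edgeR adjusted p = 0.756). The interval includes both no difference and a rise as large as that of Psat1. Exons of Cct6a on the other strand cover 10.4% of the exon bases of Psph, and since reads were counted without regard to strand, reads in that stretch cannot be assigned to either gene.

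Shmt2 (chr10:127517123-127522444, minus strand), the mitochondrial serine hydroxymethyltransferase, was at 80.4, 78.7 and 86.0 CPM in controls and 101, 113 and 108 CPM in mutants. Both groups were tight and well apart. The means were 81.7 ± 3.82 and 107 ± 6.29 CPM (SD, n = 3 each), a ratio of 1.31. The log2 fold change was 0.39 (SE 0.079, 95% interval 0.22 to 0.57), ranked 78 by p among the 16813 genes, yet with an edgeR adjusted p of 0.135. Its cytosolic counterpart Shmt1 (chr11:60788104-60811718, minus strand) was at 21.2, 18.6 and 20.9 CPM in controls and 21.9, 20.3 and 17.6 in mutants, with both the highest and the lowest value in mutants. For Shmt1 the log2 fold change was -0.02 (SE 0.11, 95% interval -0.27 to 0.22, edgeR adjusted p = 0.978), and its sign turned when control 1, control 3 or mutant 3 was left out, with values from -0.09 to 0.06 over the 6 libraries left out in turn. On the other strand, exons of Smcr8 cover 4.74% of the exon bases of Shmt1, and those of Ndufa4l2 cover 1.3% of Shmt2.

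Mthfd2 (chr6:83305691-83317606, minus strand), which oxidises the mitochondrial one-carbon unit and is known for high expression in embryos and tumours, was at 34.6, 27.5 and 27.9 CPM in controls. Mutants had 36.6, 49.2 and 40.2 CPM. Mutant 2 stood highest, and control 1 and mutant 1 were close to each other. The means were 30.0 ± 3.97 and 42.0 ± 6.50 CPM (SD, n = 3 each). This gave a log2 fold change of 0.49 (SE 0.13, 95% interval 0.19 to 0.78, edgeR adjusted p = 0.286).

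Mthfd1l (chr10:3973118-4167081, plus strand), the mitochondrial synthetase that yields formate, differed least among the 6 genes without overlap. Controls had 32.2, 27.0 and 29.4 CPM and mutants 33.0, 36.4 and 34.5 CPM. The log2 fold change was 0.23 (SE 0.093, 95% interval 0.02 to 0.44, edgeR adjusted p = 0.524). Mthfd1 (chr12:76255232-76319820, plus strand), the cytosolic enzyme that takes up formate, was at 37.7, 34.2 and 36.9 CPM in controls and 36.1, 41.3 and 41.3 in mutants. These values overlapped, with a log2 fold change of 0.13 (SE 0.088, 95% interval -0.07 to 0.32, edgeR adjusted p = 0.768).

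Aldh1l2 (chr10:83487450-83534140, minus strand), the mitochondrial formyltetrahydrofolate dehydrogenase, rose in mutants. Controls had 67.3, 63.1 and 72.6 CPM and mutants 99.7, 121 and 115 CPM. The lowest mutant lay well above the highest control. The means were 67.7 ± 4.74 and 112 ± 10.8 CPM (SD, n = 3 each), a ratio of 1.65. The log2 fold change was 0.72 (SE 0.094, 95% interval 0.51 to 0.93), the edgeR adjusted p was 0.0355, and the gene ranked 9 by p among all genes tested. The size held when any library was left out, between 0.67 and 0.80, but the adjusted p ranged from 0.0409 to 0.142 and passed the threshold in 2 of these 6 fits. It was 0.0856 without control 1, 0.120 without control 2, 0.142 without mutant 2 and 0.108 without mutant 3.

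Aldh1l2 has no exon in common with another gene in the annotation used for counting, whereas in GENCODE M21, another annotation of this build, the last exon of D10Wsu102e runs on the other strand into the last exon of Aldh1l2 and shares 1056 bases with it (chr10:83487450-83488505). The counting ignored strand, so reads from either gene at these positions cannot be told apart in the Aldh1l2 count, and how many there were was not tested. In the part that was counted under its own name (chr10:83360221-83368835), D10Wsu102e was at 22.5, 25.8 and 22.8 CPM in controls and 20.3, 22.1 and 21.7 CPM in mutants, every mutant below every control. For D10Wsu102e the log2 fold change was -0.15 (SE 0.094, edgeR adjusted p = 0.728). That value comes from outside the shared bases, so it does not describe the reads counted there.

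Aldh1l1 (chr6:90486427-90600203, plus strand), the cytosolic counterpart, was the scarcest of the 10 mRNAs, with 34 to 135 reads per library. Controls had 2.10, 2.67 and 4.88 CPM and mutants 2.92, 1.42 and 1.17 CPM. The groups overlapped through mutant 1, which lay above controls 1 and 2. The log2 fold change was -0.82 (SE 0.41, 95% interval -1.73 to 0.10, edgeR adjusted p = 0.636), the largest in size of the 10 and the least precise. It ranged from -1.31 to -0.39 when each library was left out in turn, the smallest size being without control 3 and the largest without mutant 1. Exons of Gm15756 on the other strand cover 11.1% of the exon bases of Aldh1l1, and reads in that stretch cannot be assigned to either gene.

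**Figure D2:**
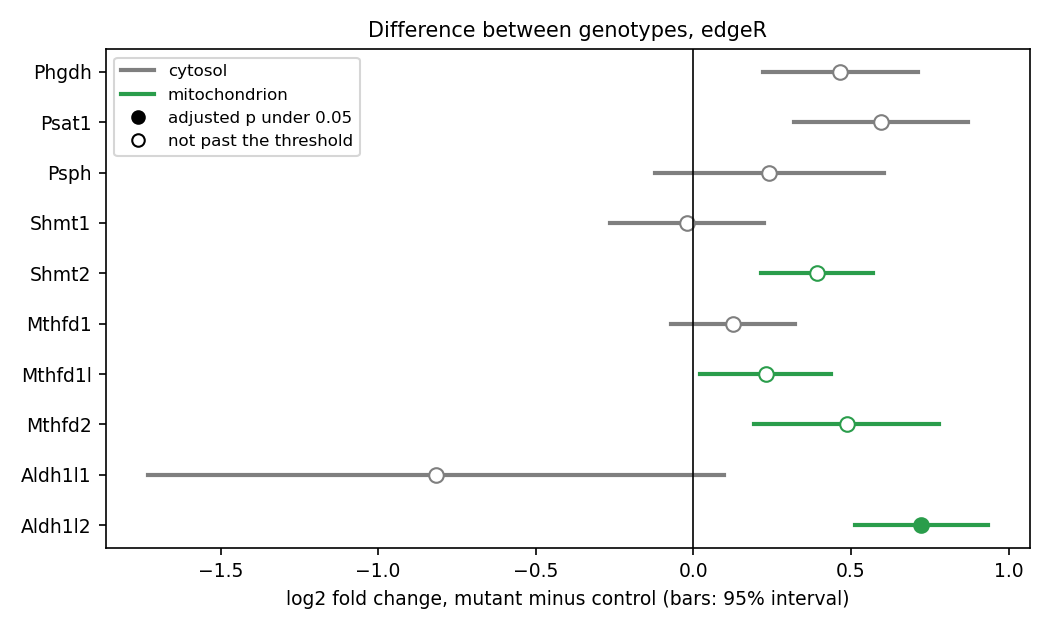
Log2 fold change of each enzyme mRNA (horizontal axis, mutant minus control, edgeR) with its 95% interval, in green for mitochondrial and grey for cytosolic enzymes. The filled point, Aldh1l2 at 0.72, is the one that passed the adjusted threshold, and the intervals of Phgdh, Psat1, Shmt2, Mthfd1l and Mthfd2 also lie above 0 while those of the other 4 include it.

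A second count model, DESeq2, gave nearly the same fold changes and called more genes. It called 4 of the 10 as higher in mutants, against 49 of 16301 genes, or 0.301%. These were Aldh1l2 (adjusted p = 1.44e-07), Psat1 (adjusted p = 0.00246), Shmt2 (adjusted p = 0.00882) and Phgdh (adjusted p = 0.0369), all from DESeq2. With the replicate number added to the model as a block, DESeq2 still called Psat1 (DESeq2 adjusted p = 0.0377) but not Shmt2 (0.225) or Phgdh (0.317). Calls for Psat1, Shmt2 and Phgdh thus depended on the tool, those for Shmt2 and Phgdh also on the model, and their direction did not.

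The replicates of a group also differed among themselves in a shared way. Mutant 1 had the lowest mutant value for all 6 of the genes without overlap, and for 8 of the 10 genes. Mutant 2 had the highest mutant value for 5 of those 6, the exception being Psat1, for which mutant 3 was at 93.6 and mutant 2 at 93.0 CPM. Among controls, control 2 was lowest for 5 of the 6, the exception being Phgdh. Within a group the coefficient of variation was 1.12% to 18.2% in controls and 4.91% to 15.5% in mutants, except for Aldh1l1 at 45.6% and 51.5%.

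By compartment, all 4 mitochondrial enzymes had every mutant above every control, with a median log2 fold change of 0.44. Of the 6 cytosolic enzymes, 2 did so (Phgdh and Psat1), with a median of 0.18. For the 3 cytosolic folate enzymes the median was -0.02 and the groups overlapped in each. These counts are descriptions of a small set of genes, and the difference between compartments was tested on 4 ratios of a mitochondrial enzyme to its cytosolic counterpart in the same library.

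The ratio of Shmt2 to Shmt1, as log2 of CPM + 0.5, was 1.90, 2.05 and 2.02 in controls and 2.18, 2.45 and 2.58 in mutants, all mutants being higher. The means were 1.99 ± 0.079 and 2.40 ± 0.20 (SD, n = 3 each), a difference of 0.41. The smallest p that an exact two-sided permutation test of 3 against 3 libraries can give is 0.1, so no ratio could pass 0.05, and this difference had an exact p of 0.1 (0.133 adjusted over 4 ratios). The Mthfd2 to Mthfd1 ratio was -0.12, -0.31 and -0.40 in controls and 0.02, 0.25 and -0.04 in mutants, again without overlap. Its difference was 0.35, with an exact permutation p of 0.1 (adjusted 0.133).

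The Aldh1l2 to Aldh1l1 ratio had the largest difference, 1.39, from 4.27 ± 0.47 to 5.65 ± 0.68 (SD, n = 3 each; exact permutation p = 0.1, adjusted 0.133). It was 4.71, 4.32 and 3.77 in controls and 4.87, 5.98 and 6.11 in mutants, and control 1 and mutant 1 lay close together. Of this pair Aldh1l2 alone passed the test across genes, and the groups of Aldh1l1 overlapped. The Mthfd1l to Mthfd1 ratio was -0.22, -0.34 and -0.32 in controls and -0.13, -0.18 and -0.26 in mutants. These overlapped, with a difference of 0.11 and an exact permutation p of 0.2 (adjusted 0.2).

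**Figure D3:**
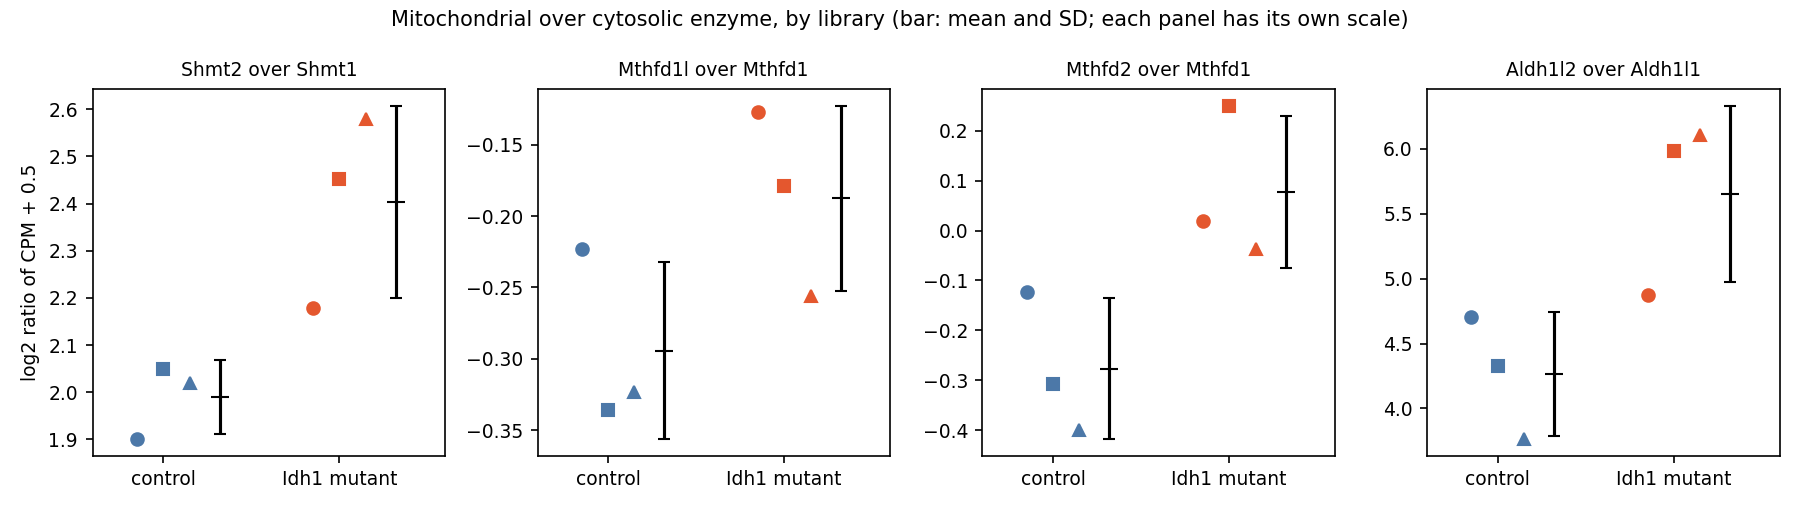
Log2 ratio of the mitochondrial to the cytosolic enzyme mRNA (vertical axes, CPM + 0.5, each panel with its own scale) in each library, with group mean and SD. Mutant libraries lie above all controls for Shmt2 over Shmt1, Mthfd2 over Mthfd1 and Aldh1l2 over Aldh1l1, and the groups overlap for Mthfd1l over Mthfd1.

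Levels of different genes were compared as CPM per kilobase of exon. In controls Shmt2 was highest at 35.5 ± 1.66, followed by Psat1 at 13.7 ± 2.12, Phgdh at 11.5 ± 0.130, Mthfd2 at 11.0 ± 1.46 and Mthfd1 at 10.9 ± 0.552 (SD, n = 3). Phgdh and Mthfd2 overlapped over the control libraries, as did Mthfd2 and Mthfd1, so their order is not resolved. Since about as many stretches of Phgdh are shared with its copies as not, its place in the order, below Psat1 included, is uncertain. The libraries of the lower neighbours did not overlap, with Aldh1l2 at 9.02, Mthfd1l at 6.66, Shmt1 at 5.21, Psph at 1.59 and Aldh1l1 at 0.713. Mitochondrial mRNA thus exceeded its cytosolic counterpart for serine hydroxymethyltransferase and for formyltetrahydrofolate dehydrogenase in both genotypes. In mutants Aldh1l2 was at 14.9 ± 1.44, above Mthfd1 at 11.9 ± 0.895 (SD, n = 3), which had been above it in controls.

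**Figure D4:**
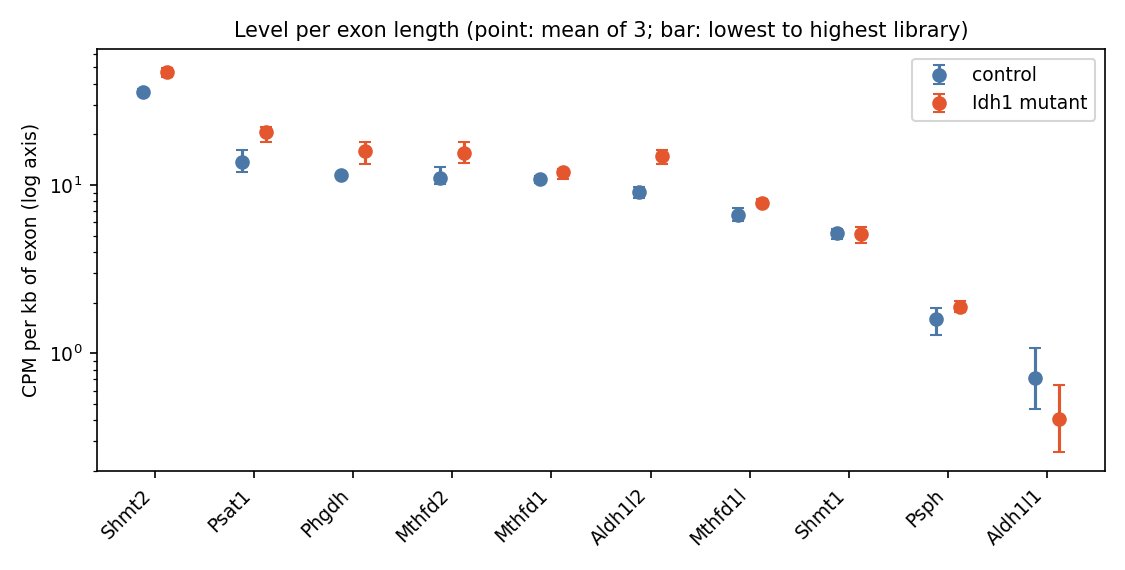
Level of each mRNA in CPM per kilobase of exon (vertical log axis), as the mean of 3 libraries with a bar from the lowest to the highest library, for controls and mutants. Shmt2 is highest at 35.5 in controls and Aldh1l1 lowest at 0.713.

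The genes around these enzymes were mostly level between genotypes. Of 62 listed genes of serine transport and use, folate handling, glycine cleavage and choline oxidation, the methionine cycle and purine synthesis, 54 were tested and 0 were called by edgeR. Of the 54, 27 were higher and 27 lower, with a median log2 fold change of -0.0018. At an unadjusted edgeR p under 0.05, 5 were higher in mutants, all in the list of serine transport and use, and 0 were lower. Of all genes, 3.71% were higher at that threshold, and 1452 of 16813 passed it in either direction. DESeq2 called 1, Slc6a9, which was higher in mutants. Over all genes DESeq2 called 0.301% as higher, and 188 of 16301 in either direction.

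Slc6a9, the glycine transporter GLYT1, had the largest fold change in those lists. Its level was 8.24, 4.86 and 6.32 CPM in controls and 13.9, 14.9 and 12.2 CPM in mutants, without overlap. The log2 fold change was 1.08 (SE 0.19, 95% interval 0.67 to 1.50), with an edgeR adjusted p of 0.0709 and a DESeq2 adjusted p of 3.38e-05, so the call depended on the tool.

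In the same list, 3 further genes had every mutant above every control without passing the test (edgeR adjusted p 0.324 to 0.567). With Slc6a9 this makes 4 of the 16 tested. Over the 5 lists together it was 5 of 54, against 6.85% of all genes. Sfxn3, a sideroflexin of the mitochondrial serine carrier family, was at 65.5, 77.2 and 66.0 CPM in controls and 83.4, 83.8 and 98.3 in mutants (log2 fold change 0.35, SE 0.099). Pisd, which makes phosphatidylethanolamine from phosphatidylserine, had a log2 fold change of 0.22 (SE 0.081), and Slc1a5, a neutral amino acid transporter, one of 0.21 (SE 0.093). The median of the 16 tested genes of that list was -0.02, with 7 higher.

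Folate uptake and interconversion stayed near 0, with a median log2 fold change of 0.0056 over 14 tested genes and 0 without overlap. Mthfd2l, the close relative of Mthfd2, was at 13.1, 16.3 and 14.1 CPM in controls and 14.2, 12.5 and 12.8 in mutants, overlapping and with a log2 fold change of -0.14 (SE 0.12, 95% interval -0.40 to 0.13). Mthfs had a log2 fold change of -0.39 (SE 0.28), the proton-coupled folate transporter Slc46a1 0.19 (SE 0.17) and the mitochondrial folate carrier Slc25a32 0.09 (SE 0.12), each with an edgeR adjusted p of at least 0.778.

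Glycine cleavage and choline oxidation are other sources of one-carbon units. Of the 6 tested genes 4 were lower and 2 higher, 0 were called by edgeR and 0 had an unadjusted p under 0.05, and the median log2 fold change was -0.09. Chdh, which oxidises choline, had -0.56 (SE 0.25, edgeR adjusted p = 0.580). Gldc, the decarboxylase of the glycine cleavage system, was low throughout, at 1.31, 1.79 and 1.37 CPM in controls and 1.02, 0.772 and 1.31 in mutants, with a log2 fold change of -0.53 (SE 0.30, edgeR adjusted p = 0.698). Every mutant library was below every control for Gldc, by a narrow margin in mutant 3. Sardh and Dld had log2 fold changes of -0.17 and 0.07.

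Purine synthesis and the methionine cycle use one-carbon units, and 0 of their 18 tested genes were called by edgeR, with 0 at an unadjusted p under 0.05. Purine synthesis had a median log2 fold change of 0.0034 over 8 tested genes, with Pfas at 0.16 (SE 0.11), Prps1 at 0.09, Paics at -0.06 and Atic at 0.05. In the methionine cycle and transsulfuration the median of 10 tested genes was 0.03. There Gnmt had 0.77 (SE 0.43) at 0.196 to 0.397 CPM in controls, Cbs -0.54 (SE 0.33), Ahcy -0.30 (SE 0.20) and Cth -0.17 (SE 0.30), and none passed the test. The value of Ahcy rested on control 3 at 18.9 CPM, since the other 5 libraries lay between 10.8 and 11.1 CPM, and it was 0.02 without that library.

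Cell cycle genes, whose mRNA accompanies DNA synthesis and its need for nucleotides, had a median log2 fold change of -0.08 over 12 tested genes, with 9 lower and 0 called by edgeR. Bub1 had -0.41 (SE 0.17, edgeR adjusted p = 0.546), Ccnb2 -0.14, Rrm2 -0.15 and Mki67 -0.18. Mki67, which marks dividing cells, was at 480, 416 and 448 CPM in controls and 334, 391 and 463 CPM in mutants.

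**Figure D5:**
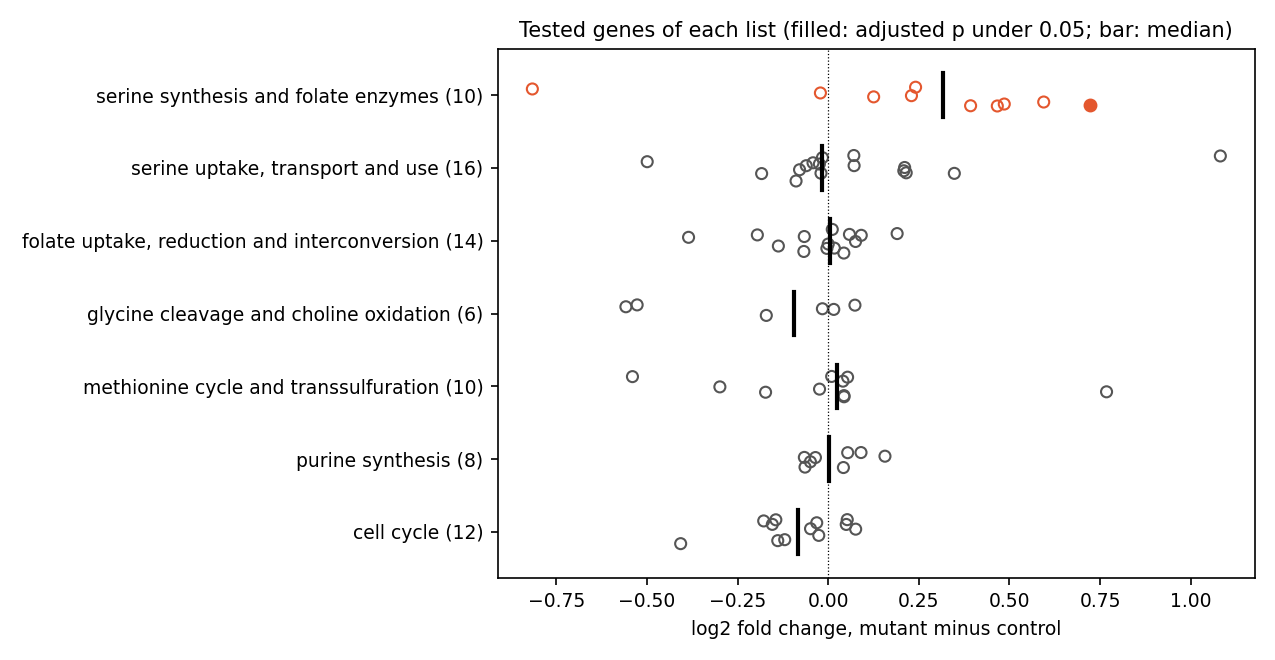
Log2 fold change (horizontal axis, mutant minus control) of every tested gene in each list, with the number tested in parentheses and the list median as a black bar. The 10 enzymes have a median of 0.32, and the medians of the other lists lie between -0.09 and 0.03, with Slc6a9 as the point at 1.08.

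The 5 other genes with profiles most like that of Aldh1l2 were chosen by Pearson r of log2 CPM over the 6 libraries, which describes genes that share the same libraries. They were Gm16286 (r = 0.991), Zfp773 (r = 0.990), Sbno2 (r = 0.989), Kdr (r = 0.989) and Nrxn2 (r = 0.985). Their lack of overlap between the groups follows from that choice, and none passed the test. Sbno2 was nearest to Aldh1l2 in strength of evidence, at 34.6, 31.2 and 34.1 CPM in controls and 41.3, 48.3 and 45.4 in mutants (log2 fold change 0.44, SE 0.089, edgeR adjusted p = 0.137). Kdr, a receptor of endothelial cells, was at 125, 126 and 128 CPM in controls and 147, 154 and 149 in mutants.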

How the data were processed

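The authors trimmed single-end reads of poly(A) RNA with Trim Galore 0.6.4, mapped them to GRCm38 with STAR 2.6.1d, and counted them per gene over exons with featureCounts 1.6.4, ignoring strand and reads with several locations. The deposited values are these raw counts. Genes and lists were chosen with earlier results of these data known. From the counts, 16813 genes passing filterByExpr (minimum count 10) were fitted with TMM factors in edgeR 4.0.16 (quasi-likelihood test, genotype alone) and adjusted by Benjamini-Hochberg. The litter term of the study's own model is not in the labels and was not used. CPM are TMM-scaled. A count floor of 3 corresponds to 0.0986 to 0.128 CPM and covers counting error only. From each metabolic list and the cell cycle list, called genes and the 4 with the lowest p were named, with the 5 profiles nearest to the enzyme of lowest p and genes whose exons overlap those of an enzyme. Alternatives used upper-quartile and RLE factors, other filters, limma-voom 3.58.1, DESeq2 1.42.0, a replicate block and each library left out. Scripts were tested on simulated data. Age was taken from the labels as E18.5, although their animal care text gives 2 months. Labels tell animals apart only by replicate number, so p-values measure the spread between these libraries.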

Additional observations from a re-analysis of the deposited data

How the results depend on the processing

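The number of called genes depended on the method: 32 in edgeR, 188 in DESeq2, 19 in limma-voom, 259 with no low-count filter, and 3 to 17 with each library left out. Of the 10 enzymes, 1 was called, against 4 in DESeq2, 5 with no low-count filter, and 0 to 1 with each library left out. Same-numbered animals did not deviate together (r = -0.127, 0.0070 and -0.0953), so the replicate numbers were not taken as pairs. With the replicate number as a block, edgeR called 3 genes and 0 enzymes, and the adjusted p of Aldh1l2 in edgeR was 0.136. DESeq2 with that block called 98 genes and 2 enzymes, Aldh1l2 and Psat1. For the 4 ratios a block of 3 pairs leaves the difference as it is by construction, and the smallest exact p it allows is 0.25. Leaving out a library, an alternative chosen after seeing the data, can keep or raise but not lower the count of 6 enzymes without overlap, so it is no check of it. Under the 8 other settings 71 of 80 enzyme values had the same sign and the same call, 8 gained a call and 1 lost it. With each library left out, signs turned for Shmt1 (-0.093 to 0.061), Slc25a32 (-0.0036 to 0.16), Ahcy (-0.44 to 0.022), Cth (-0.39 to 0.14) and Paics (-0.10 to 0.0086), and 53 of 60 enzyme values had the same sign and call. Sizes still moved, as for Psph (0.11 to 0.37), Mthfd1 (0.088 to 0.19), Pfas (0.044 to 0.24), Mthfs (-0.54 to -0.10) and Cbs (-0.73 to -0.26). The 4 ratios kept their direction under every setting run. The causes were not tested. With 3 libraries a group, differences whose interval includes 0 cannot be told from 0.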
